A study of Mus musculus with 48 samples.

Results

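Adrb1, Cysltr1, Gpr84 and Dagla are 4 genes through which noradrenaline, leukotrienes and fatty acid-derived mediators reach or leave a cell. They were picked by name from 478 genes counted in hippocampal microglia of mouse pups, and all 4 had a row in each of the authors' 3 deposited tables. The choice was made with the ratios and p-values of these tables known, so every value below is a description, and no p-value of these genes is independent evidence that they differ. The groups were pups raised under UPS, LB or CTL rearing, with 16 animals in each, of whom 8 were male and 8 female. All were 17 days old and of the strain given in the labels as Balbc/Byj. The labels name no transgene and no drug. The labels give only the abbreviations for the stress groups and call CTL the control. As background, the abbreviations stand for unpredictable postnatal stress and for limited bedding and nesting material, and both are early-life stress models. About 60000 microglia per pup were purified by density gradient and flow cytometry and counted on a glial probe panel in 4 batches of 12 reactions, each with all groups and both sexes. Each group and sex drew on 4 to 5 litters. Littermates were therefore present, and litter was not modelled here.

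Microglia are the macrophages of the brain and carry receptors for messengers that neurons, blood and other glia release during stress or injury. Adrb1 encodes the beta-1 adrenergic receptor, which responds to noradrenaline and adrenaline and raises cyclic AMP through the stimulatory G protein. Cysltr1 encodes the first receptor of the cysteinyl leukotrienes, lipid mediators made from arachidonic acid that are best known for airway constriction and inflammation. Gpr84 encodes a receptor activated by medium-chain fatty acids, which is known to be induced in macrophages and microglia by inflammatory stimuli. Dagla encodes diacylglycerol lipase alpha, which makes the endocannabinoid 2-arachidonoylglycerol and is best known from neurons.

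Only log2 ratios between rearing groups were used, with the sexes pooled, so the level of a gene in each pup, its spread and the number of pups that shared a direction are not given. The numerator of each ratio is not stated in the file headers, so its direction is unknown and signs are kept as deposited. A positive ratio is more transcript in UPS than in CTL or LB, and in LB than in CTL, if UPS, and LB against CTL, is the numerator. With the opposite numerators the signs of all 3 tables would turn as one. Statements on which group lies between the others, and on which genes share a sign, hold under both readings. The ratio of UPS and LB equalled the ratio of UPS and CTL minus that of LB and CTL to within 0.0006 for these 4 genes, so the 3 comparisons of a gene hold 2 independent ratios. Those of UPS and CTL and of LB and CTL share the CTL animals. In sorted cells counted in bulk, fewer cells that express a gene and less transcript per cell cannot be told apart.

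The adrenergic receptor had the largest ratios of the 4 genes in all 3 comparisons. In the authors' deposited tables the log2 ratio of Adrb1 was 0.89 between UPS and LB, a ratio of 1.85 with a recovered 95% interval from 1.34 to 2.54. It was 0.70 between UPS and CTL, a ratio of 1.63 with an interval from 1.18 to 2.24. Between LB and CTL it was -0.18, with an interval on the log2 scale from -0.64 to 0.28 that includes no difference. By point estimate UPS lay at one end and LB at the other, with CTL between them at 20.5% of the distance from LB to UPS. LB and CTL could change places within their error.

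Adrb1 passed an adjusted p of 0.05 in a single comparison. The authors' deposited tables gave it an adjusted p of 0.00983 between UPS and LB (Benjamini-Hochberg, all 478 genes, p = 0.00035), 0.0596 between UPS and CTL (p = 0.00349) and 0.79 between LB and CTL. By size of the ratio it ranked 2 of 478 between UPS and LB and 3 between UPS and CTL, and by p it ranked 17 and 27 in the same comparisons. Its recovered standard error, 0.228 on the log2 scale, was 4.53 times the median of all genes and smaller than that of only 11 of them. A log2 ratio of Adrb1 had to reach 0.46, or 1.38-fold, for an unadjusted p of 0.05, against 0.10, or 1.07-fold, for the median gene.

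The sequence before the start of Adrb1 is shown because this gene had the largest ratio of the 4 and because its receptor acts through cyclic AMP. It is taken from RefSeq, build GRCm38.p6, chr19:56721867-56722116, plus strand, 250 bases that end just before the annotated transcript start. Capitals mark 3 short motifs that were searched on both strands after the sequence had been seen, and that do not overlap here: the half-site of the cyclic AMP response element (TGACG), the GC box (GGGCGG) and the CCAAT box (CCAAT).
Adrb1: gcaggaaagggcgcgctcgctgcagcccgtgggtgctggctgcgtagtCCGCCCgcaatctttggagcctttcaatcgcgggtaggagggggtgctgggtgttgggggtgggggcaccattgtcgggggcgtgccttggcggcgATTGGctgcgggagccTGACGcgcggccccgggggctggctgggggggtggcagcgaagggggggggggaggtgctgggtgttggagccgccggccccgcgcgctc
The half-site begins 90 bases before the start on the plus strand, and 17.8% of 32851 windows of the same length before mouse gene starts hold one, as do 25.8% of the 461 windows of panel genes. The GC box is on the minus strand 202 bases before the start (32.7% of all windows, 57.0% of those of analysed genes), and the CCAAT box on the minus strand 106 bases before it (33.8% and 33.4%). The window is 74.0% G or C with 24 CpG sites, against medians of 52.4% and 6 over all windows and of 60.0% and 15 over the windows of analysed genes. These matches describe letters only.

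The endocannabinoid-producing lipase showed the same order of groups as Adrb1 by point estimate, with smaller ratios. The log2 ratio of Dagla in the authors' deposited tables was 0.24 between UPS and LB, a ratio of 1.18 with a recovered 95% interval from 1.11 to 1.25. It was 0.15 between UPS and CTL, a ratio of 1.11 with an interval from 1.04 to 1.18. Between LB and CTL it was -0.087, a ratio of 0.942 with an interval from 0.885 to 1.00. By point estimate CTL again lay between the stress groups, at 36.6% of the distance from LB to UPS.

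Dagla was the only one of the 4 genes to pass in both UPS comparisons. Its adjusted p in the authors' deposited tables was 0.00028 between UPS and LB (p = 3.04e-06, rank 5 by p), 0.038 between UPS and CTL (p = 0.00143, rank 18) and 0.434 between LB and CTL (p = 0.0554). By size its ratio ranked 30 of 478 between UPS and LB and 60 between UPS and CTL. The standard error of Dagla was 0.0440 on the log2 scale, below the median of 0.0502, and its ratio between UPS and LB was 5.38 standard errors, against 3.89 for the larger ratio of Adrb1.

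**Figure D1:**
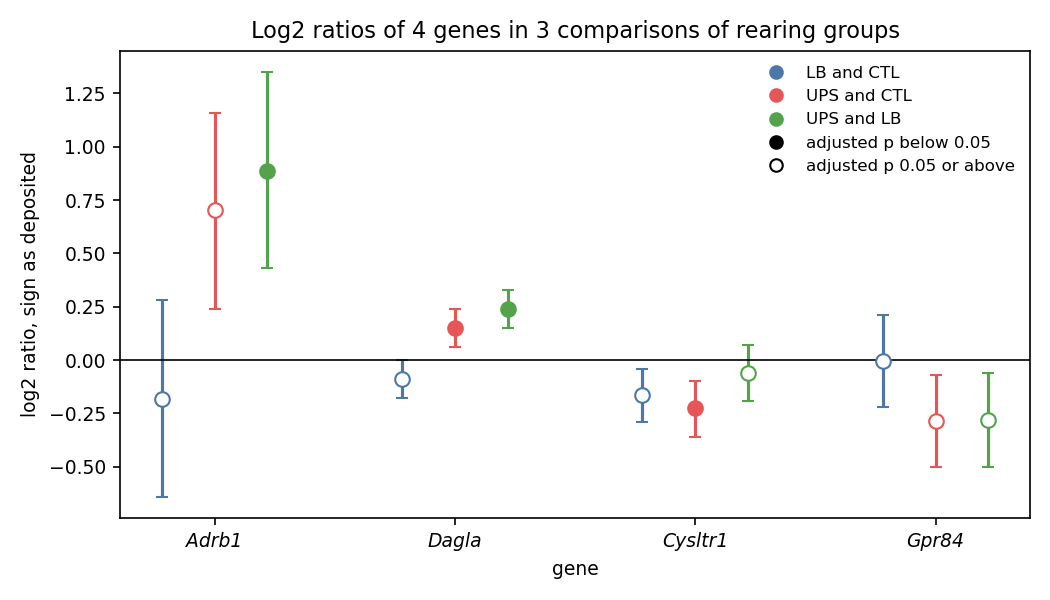
Log2 ratios of Adrb1, Dagla, Cysltr1 and Gpr84 (y axis, log2 scale, sign as deposited) for LB and CTL, UPS and CTL, and UPS and LB, 16 animals per group, with 95% intervals recovered from the deposited ratio and p; filled points had an adjusted p below 0.05. Adrb1 and Dagla have positive ratios in both UPS comparisons, Cysltr1 and Gpr84 negative ones, and the interval of Adrb1 is the widest.

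The leukotriene receptor showed another order of groups, with CTL at one end, UPS at the other and LB nearer to UPS. The log2 ratio of Cysltr1 in the authors' deposited tables was -0.23 between UPS and CTL, a ratio of 0.855 with a recovered 95% interval from 0.782 to 0.934. It was -0.16 between LB and CTL, a ratio of 0.892 with an interval from 0.816 to 0.976. Between UPS and LB it was -0.062, a ratio of 0.958 with an interval from 0.876 to 1.05. LB lay at 27.8% of the distance from UPS to CTL, and the stress groups did not differ beyond their error.

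Cysltr1 passed between UPS and CTL and in neither other comparison. The adjusted p in the authors' deposited tables was 0.031 between UPS and CTL (p = 0.00093, rank 14 by p), 0.264 between LB and CTL (p = 0.0133, rank 24) and 0.639 between UPS and LB. A pass against CTL in UPS and not in LB does not show that the stress groups differ, since the ratio between them had an unadjusted p of 0.334. Among the 4 genes Cysltr1 had the smallest p between LB and CTL.

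The fatty acid receptor had UPS at one end, and LB and CTL close together at the other, 0.916% of that distance apart. For Gpr84 the log2 ratio in the authors' deposited tables was -0.28 between UPS and LB, a ratio of 0.822 with a recovered 95% interval from 0.707 to 0.956. Between UPS and CTL the log2 ratio was -0.28 as well, a ratio of 0.821 with an interval from 0.706 to 0.954. Between LB and CTL it was -0.0026, with an interval of the ratio from 0.859 to 1.16, so LB and CTL could still differ by up to 1.16-fold.

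Gpr84 passed in no comparison. Its adjusted p in the authors' deposited tables was 0.111 between UPS and LB (p = 0.0121), 0.147 between UPS and CTL (p = 0.0114) and 0.988 between LB and CTL. Its ratios in the UPS comparisons were larger than those of Dagla, which passed in both, and its standard error of 0.108 was 2.14 times the median of all genes. By size its ratio ranked 13 of 478 between UPS and CTL and by p it ranked 37.

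**Figure D2:**
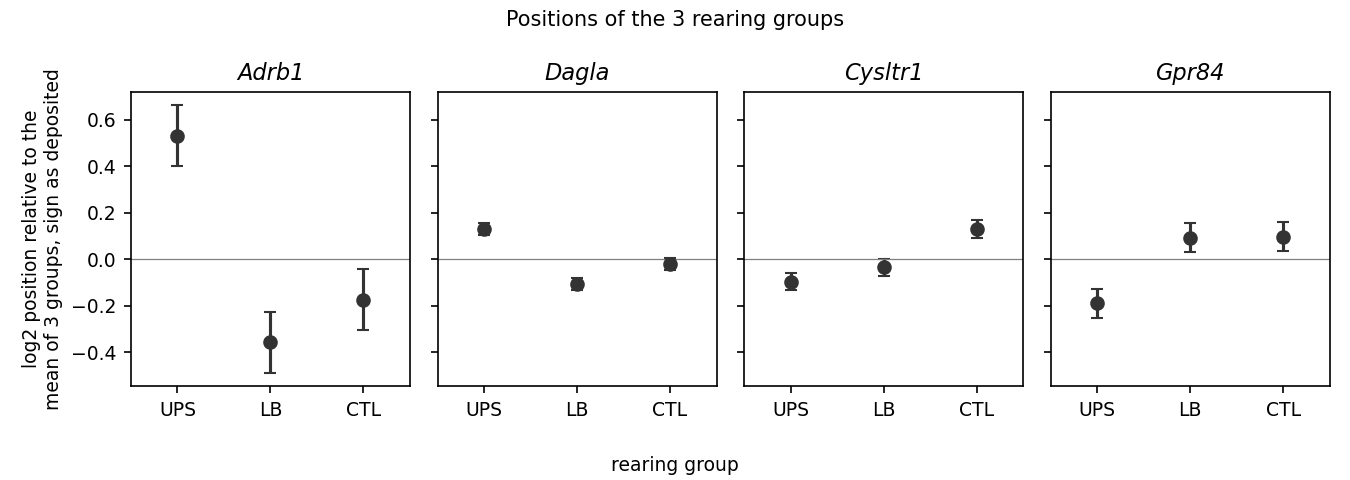
Position of the UPS, LB and CTL groups (x axis) relative to the mean of the 3 groups (y axis, log2 scale, sign as deposited) for each gene, with bars of 1 standard error recovered from the deposited tables. By point estimate UPS is at one end for all 4 genes. The middle group is CTL for Adrb1 and Dagla, and LB for Cysltr1 and Gpr84. The interval between LB and CTL includes no difference for Adrb1, Dagla and Gpr84. That between UPS and LB includes it for Cysltr1, so these groups could change places.

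Set side by side, the positions relative to the mean of the 3 groups were 0.53 in UPS, -0.36 in LB and -0.17 in CTL for Adrb1, each with a standard error of 0.131 on the log2 scale. For Dagla they were 0.13 in UPS, -0.11 in LB and -0.021 in CTL (standard error 0.0254). The signs of UPS were opposite for the other pair of genes. Cysltr1 had positions of -0.10 in UPS, -0.034 in LB and 0.13 in CTL (standard error 0.0368), and Gpr84 had -0.19 in UPS, 0.093 in LB and 0.096 in CTL (standard error 0.0622). Over all 478 genes UPS was the middle group for 32.8%, LB for 30.1% and CTL for 37.0%. UPS was at an end for each of the 4 genes, which were chosen with their ratios known, and nothing is read from that count.

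Counted over the 4 genes, 0 passed between LB and CTL in the authors' deposited table by the Benjamini-Hochberg adjustment, where 0% of all 478 genes passed. Between UPS and CTL 2 of the 4 passed, where 4.81% of all genes passed: Dagla, with a positive ratio like 3.56% of genes, and Cysltr1, with a negative ratio like 1.26%. Between UPS and LB 2 passed, Adrb1 and Dagla, both with a positive ratio, where 6.28% of all genes passed in either direction and 4.60% with a positive ratio. At an unadjusted p below 0.05 there was 1 of the 4 between LB and CTL (11.7% of all genes), 4 between UPS and CTL (16.3%) and 3 between UPS and LB (18.8%). The genes were chosen with these calls known, so the counts are not set against those shares as a result. Adrb1 and Gpr84 were 27 and 37 in the order of p between UPS and CTL, where 23 genes passed, so Adrb1 lay just outside the threshold.

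**Figure D3:**
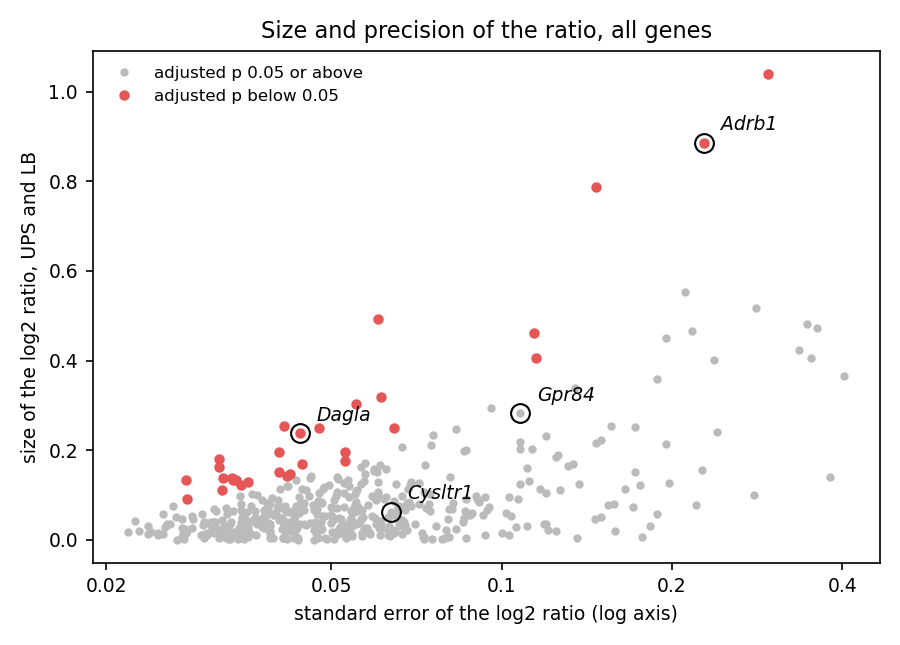
Size of the log2 ratio between UPS and LB (y axis, sign left out) against its recovered standard error (x axis, log axis) for all 478 genes, with red points for the 30 genes with an adjusted p below 0.05 and circles around Adrb1, Dagla, Cysltr1 and Gpr84. Dagla passed with a ratio of 0.24 at a standard error of 0.0440, while Gpr84 at 0.28 with a standard error of 0.108 did not.

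In 6 lists of related genes, 22 genes besides the 4 had a row, and 0 of the 22 passed in any of the 3 authors' deposited tables by the Benjamini-Hochberg adjustment. Of all genes 0% passed between LB and CTL, 4.81% between UPS and CTL and 6.28% between UPS and LB, so a count of 0 among 22 is near the share of all genes. At an unadjusted p below 0.05 there was 1 of the 22 between LB and CTL (11.7% of all genes), 1 between UPS and CTL (16.3%) and 4 between UPS and LB (18.8%). Their median log2 ratio was 0.010 between LB and CTL, 0.0072 between UPS and CTL and 0.015 between UPS and LB, against 0.0035, -0.0024 and -0.010 over all genes.

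Around the adrenergic receptor, 4 genes of cyclic AMP signalling were measured. Grk3, a kinase that desensitises activated G protein-coupled receptors, had log2 ratios in the authors' deposited tables of -0.11 between UPS and LB (p = 0.0154, adjusted p = 0.13), -0.016 between UPS and CTL and 0.096 between LB and CTL (p = 0.0366, adjusted p = 0.413). By point estimate LB lay at one end for both Grk3 and Adrb1, with opposite signs, but the patterns were not alike. For Grk3 UPS and CTL lay close together, whereas for Adrb1 UPS stood apart and LB was not separated from CTL. Grk3 passed in no comparison. Gnas, the stimulatory G protein subunit, was at 0.097 between UPS and LB in the authors' deposited table, and Prkacb, a catalytic subunit of protein kinase A, at 0.091. Prkar1a, a regulatory subunit of that kinase, was at -0.027, with an interval from -0.08 to 0.03 on the log2 scale that is narrow beside that of Adrb1. None of the 4 passed, and other adrenergic receptors were not analysed here.

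Beside Cysltr1, 3 enzymes of leukotriene and prostaglandin synthesis were measured, and none passed. In the authors' deposited table for UPS and CTL, Ltc4s, which makes the first cysteinyl leukotriene, had a log2 ratio of 0.17 with an interval from -0.06 to 0.39 (adjusted p = 0.445). Lta4h, which makes leukotriene B4, was at -0.017 in that authors' deposited table, and Hpgds, the hematopoietic prostaglandin D synthase, at 0.026. Between LB and CTL Hpgds had a log2 ratio of 0.099 in the authors' deposited table (p = 0.0801, adjusted p = 0.473), with the sign opposite to that of Cysltr1 at -0.16.

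Beside Gpr84, 2 receptors of related lipids were measured, Gpr34, a lysophosphatidylserine receptor of microglia, and Lpar6, a lysophosphatidic acid receptor. In the authors' deposited table for UPS and CTL their log2 ratios were -0.087 and -0.086, of the same sign as Gpr84 and smaller, with adjusted p of 0.394 and 0.445. Between UPS and LB they were -0.012 and -0.046 in the authors' deposited table, with adjusted p of 0.929 and 0.684.

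Beside Dagla, 4 genes of diacylglycerol and calcium signalling were measured. All 4 had a small positive ratio between UPS and LB. Between UPS and CTL, and between LB and CTL, 2 were positive and 2 negative. Prkcd, a protein kinase C that diacylglycerol activates, had a log2 ratio of 0.044 between UPS and LB in the authors' deposited table and 0.078 between UPS and CTL (p = 0.0619, adjusted p = 0.325). Itpr1, an inositol trisphosphate receptor that releases calcium, was at 0.064 between UPS and LB in the authors' deposited table. Prkce, another diacylglycerol-activated kinase, was at 0.039, and Plcb4, a phospholipase that makes diacylglycerol, at 0.030 with a wide interval from -0.34 to 0.40. Between UPS and CTL the authors' deposited table gave -0.096 for Plcb4, -0.011 for Itpr1 and 0.046 for Prkce. None of these 4 passed.

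Of 8 other G protein-coupled receptors, 0 passed in any comparison. P2ry6, a receptor for uridine nucleotides, had a log2 ratio of 0.17 between UPS and CTL in the authors' deposited table (p = 0.0197, adjusted p = 0.21). Adgrg1, an adhesion receptor, was at 0.20 between UPS and LB in the authors' deposited table (p = 0.0257, adjusted p = 0.176), and P2ry13, an ADP receptor, at -0.082 (p = 0.0388, adjusted p = 0.218). P2ry12, the ADP receptor that marks microglia, had 0.082 between LB and CTL in the authors' deposited table (p = 0.051, adjusted p = 0.413). Cx3cr1, the fractalkine receptor, stayed within 0.0093 of 0 on the log2 scale in all 3 authors' deposited tables. Of the list named glucocorticoid-responsive a single gene was measured, the chaperone gene Hsp90ab1, with 0.21 between UPS and LB in the authors' deposited table (p = 0.00753, adjusted p = 0.0809). It did not pass, and this gene alone gives no reading of a glucocorticoid response.

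**Figure D4:**
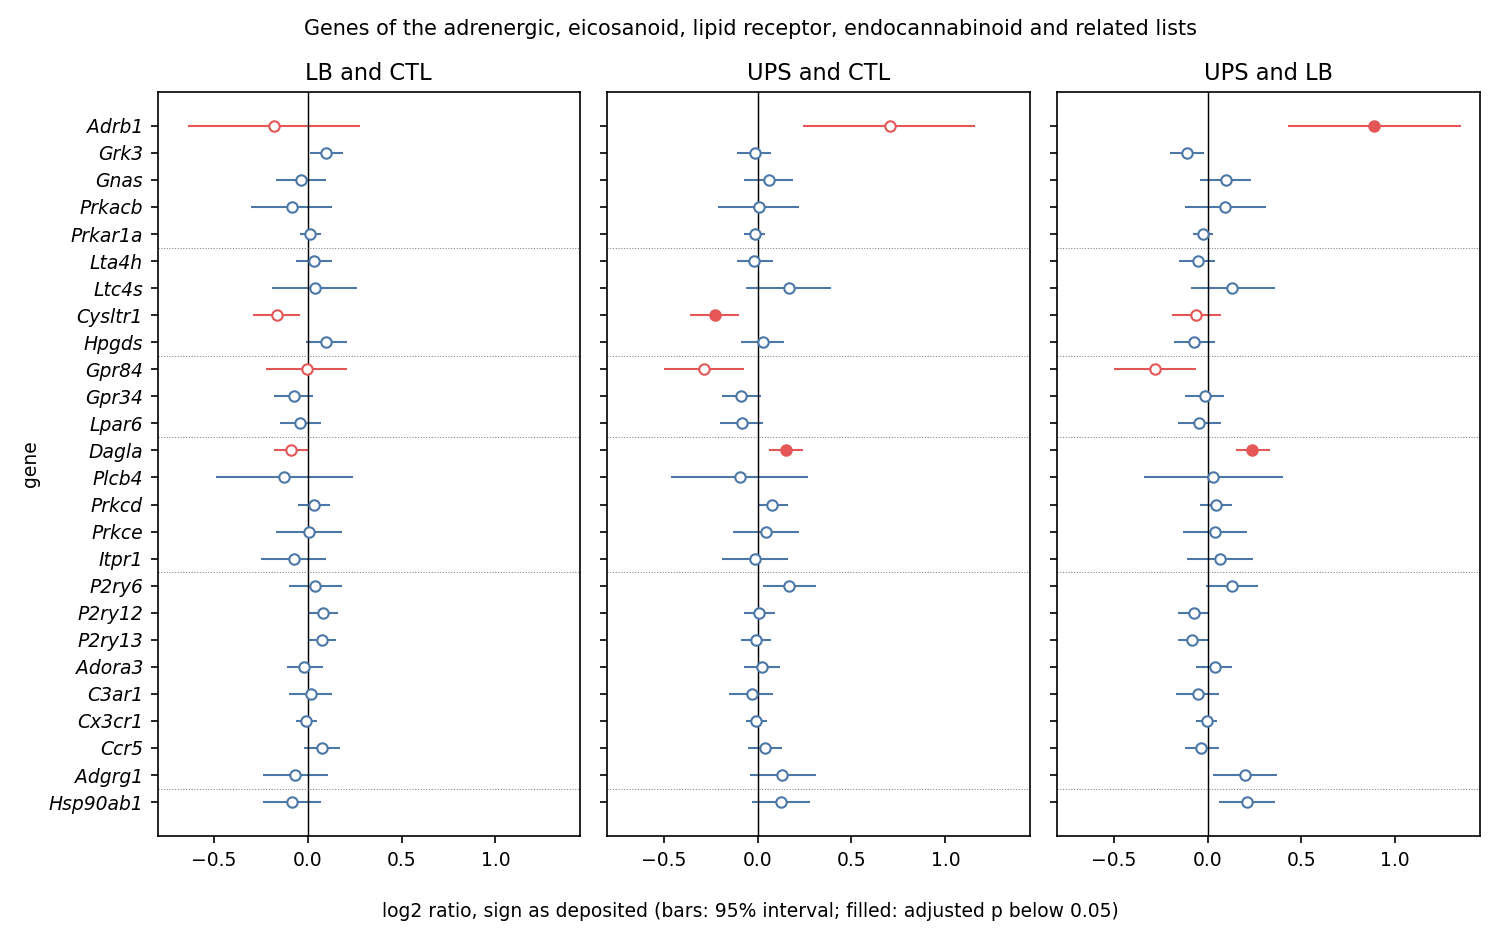
Log2 ratios (x axis, log2 scale, sign as deposited) with 95% intervals for the 26 measured genes of the 6 lists (y axis, dotted lines separate adrenergic and cyclic AMP, leukotriene and prostaglandin, fatty acid and lysolipid receptor, endocannabinoid and diacylglycerol, other receptor and glucocorticoid-responsive genes), for LB and CTL, UPS and CTL, and UPS and LB. Red marks Adrb1, Cysltr1, Gpr84 and Dagla, blue the 22 other genes, and the filled points, with an adjusted p below 0.05, are all red.

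The genes whose ratios were most like those of each member were found by the Euclidean distance over the log2 ratios of LB and CTL and of UPS and CTL, which amount to 2 values per gene. Nearest to Adrb1 was Kitl, the ligand of the receptor Kit, at a distance of 0.0914, with log2 ratios in the authors' deposited tables of 0.79 between UPS and LB (adjusted p = 0.00028) and 0.61 between UPS and CTL (adjusted p = 0.00989). Tlr7, a receptor of single-stranded RNA, was next at 0.290 and Tmem119, a marker of microglia, at 0.432. These distances are larger than those of the genes nearest to Dagla and Cysltr1.

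Nearest to Dagla were Trim35, a tripartite motif protein, at a distance of 0.0211, Hsp90ab1 at 0.0250 and Adgrg1 at 0.0262. In the authors' deposited table for UPS and LB these had log2 ratios of 0.21, 0.21 and 0.20, and none of them passed. Their standard errors were 0.0667 to 0.0865, against 0.0440 for Dagla. Nearest to Cysltr1 were the complement protease gene C1ra at 0.0292, the calcium channel subunit gene Cacnb2 at 0.0340 and the chemokine gene Cxcl15 at 0.0442, which also did not pass. Nearest to Gpr84 were Tlr2, a receptor of bacterial lipoproteins, at 0.107, Acsl4, a long-chain acyl-CoA synthetase, at 0.119 and Acat1, a mitochondrial thiolase, at 0.132. Of these Tlr2 passed between UPS and CTL, with a log2 ratio of -0.19 in the authors' deposited table (adjusted p = 0.0199). With each ratio divided by its standard error, 1 of the 12 nearest genes was the same, Acsl4 beside Gpr84.

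Markers of other cells bear on Adrb1 and Dagla, which cells other than microglia also express. All 15 listed microglia markers had a row, but the tables hold no levels, so the purity of the sort could not be checked from them. Of these 15, 2 passed between UPS and LB, with the sign of Adrb1 and Dagla, where 6.28% of all genes passed. In the other comparisons 0 passed, where 4.81% of all genes passed between UPS and CTL and 0% between LB and CTL. The 2 that passed were Tmem119, at a log2 ratio of 0.46 in the authors' deposited table (adjusted p = 0.0076), and C1qa, a chain of complement C1q, at 0.13 (adjusted p = 0.00101). At an unadjusted p below 0.05 there were 2 of the 15 between UPS and LB, against 18.8% of all genes. There were 4 between UPS and CTL (16.3% of all genes) and 3 between LB and CTL (11.7%). Of 12 measured markers of other brain and blood cells, Slc1a3, an astrocyte glutamate transporter, and Stab1, a border macrophage scavenger receptor, passed in both UPS comparisons. These were 2 of 12 in each, beside the same shares of all genes as above, and 0 passed between LB and CTL. At an unadjusted p below 0.05 there were 5 of the 12 between UPS and LB, 4 between UPS and CTL and 2 between LB and CTL. The marker lists were chosen with earlier results known, so no count is read as a result. Slc1a3 had log2 ratios in the authors' deposited tables of 0.25 between UPS and LB (adjusted p = 0.00995) and 0.21 between UPS and CTL (adjusted p = 0.0461), with the sign of Adrb1 and Dagla. Stab1 had 0.20 between UPS and LB (adjusted p = 0.0146) and 0.21 between UPS and CTL (adjusted p = 0.0197) in the authors' deposited tables.

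In the authors' deposited tables the 12 markers of other cells ranged from -0.47 to 0.45 between UPS and LB with a median of 0.044, and from -0.77 to 0.27 between UPS and CTL with a median of -0.0071. Cspg4, of oligodendrocyte precursors and pericytes, was at 0.45 between UPS and LB in the authors' deposited table (adjusted p = 0.176), and the astrocyte enzyme gene Glul at 0.15 (adjusted p = 0.117). The single neuronal gene, Gad1, was at 0.0029 there, with an interval from -0.27 to 0.28. The part of these cells in the ratios of Adrb1 and Dagla was not tested.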

How the data were processed

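Transcripts of sorted hippocampal microglia were counted on the nCounter mouse glial panel, per the labels' protocols, in 48 libraries. The files used were the authors' 3 deposited tables, 1 for each pair of rearing groups, with 478 genes each. Their columns, per the file headers, are the log2 fold change, its linear form (a ratio), the p-value and its Benjamini-Hochberg adjustment. Per the series text, genes above 20 counts were analysed and the pairs compared in nSolver with batch as a covariate. Normalization and software version: not given in the sources used here. Depth per library is unknown, and so is the precision it gives.

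No model was refitted, because the tables hold no values per library. The threshold was an adjusted p of 0.05 over all 478 genes. Recomputed and deposited adjusted p-values called the same genes. A standard error was derived for each gene from the deposited log2 ratio and p-value (two-sided t distribution), in the table where its p was smallest. Of 6 candidate models, 42 residual degrees of freedom (all libraries, rearing and batch) made the standard errors of a gene most alike across tables (median mismatch 0.145%), and 41 came close (0.148%). The 95% intervals treat pups as independent and are too narrow where littermates are alike. The deposited p-values they come from, and the calls made from those, share this limit, as batch is the only covariate stated. Recovery was tested on simulated data.

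The members, gene lists and naming rule were chosen with earlier results of these data known. The rule named the members, the 3 genes nearest to each, up to 4 genes per pathway list by smallest p, and markers that passed. Cspg4, Glul, Gad1 and Cx3cr1 were named after their values were seen. Adrb1 and Gpr84 matched the RefSeq upstream sequences. Python 3.11.15, pandas 2.3.3, numpy 2.4.6 and scipy 1.17.1 were used.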

Additional observations from a re-analysis of the deposited data

How the results depend on the processing

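The members past the threshold depended on how strictly p-values were adjusted. Between UPS and CTL, 0 of the 4 genes passed by Benjamini-Yekutieli and 0 by Bonferroni adjustment, against 2 as reported. Between UPS and LB, 1 passed by each of these, Dagla, against 2. With only genes whose standard error was at or below the 90th percentile, 1 passed between UPS and LB, because Adrb1 is among the 48 genes left out. Over all genes, 4 passed between UPS and CTL by Benjamini-Yekutieli and 5 by Bonferroni adjustment, against 23, and 13 and 11 passed between UPS and LB, against 30. Adjusted over the 3 tables together, 3 genes passed between LB and CTL, against 0, and none was a member. Adjusting over the 3 tables and centring on the median of all genes changed no call of the 4 genes. The order of the groups was the same for all 4 from any pair of tables. It could not differ, because the 3 ratios of each gene add up to within 0.0006, so it does not show how stable the order is. The count of 0 among the 22 other pathway genes held under all 5 alternatives. By Benjamini-Yekutieli and Bonferroni adjustment it could not rise, because these are never less strict than Benjamini-Hochberg. Of these alternatives only centring on the median changes the ratios, and no ratio of the 4 genes changed sign by it. The others leave each ratio as deposited, so its sign could not change. The nearest genes shared 1 of 12 between the 2 distances. No paired analysis was possible because the tables hold comparisons and no value per library, and leaving out each replicate was not run for the same reason. The precision of Adrb1 and Gpr84 limits what could be called for them.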
